A study of Mus musculus with 8 samples.

Results

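Of 21887 protein-coding mouse genes, the 33 described here repair DNA double-strand breaks or signal that such breaks are present. They were listed by name and function, not by any measured value, but with earlier results of these data known. All 33 were found by symbol in the gene table. By role they comprise 16 genes of homologous recombination, 5 of the Fanconi anaemia pathway, 7 of end joining and 5 of the damage checkpoint. Trimethylation of histone H3 at lysine 36 (H3K36me3) was located by sequencing immunoprecipitated chromatin from bone marrow stromal cells, adherent marrow cells that include progenitors of bone and fat. The cells came from C57BL/6J mice homozygous for a floxed Setd2 allele and were used at passage 2. A lentivirus carrying GFP leaves the floxed gene intact (called WT here), and one carrying Cre recombinase deletes the floxed part (called KO). Both groups carried the floxed alleles and spent 4 days in puromycin (2 µg/ml), so no group had unmodified Setd2 alleles or went without virus. Each genotype had 2 H3K36me3 libraries, 1 Input library (chromatin without antibody) and 1 IgG library, made with an antibody of no set target. Whether the 2 libraries of a genotype stem from separate cultures is not in the labels, so p-values cover the spread between libraries alone, and it may be technical.

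Cells join broken DNA ends in several ways. End joining religates them directly: the Ku proteins bind the ends, a kinase holds them, and a ligase seals them. Homologous recombination copies the lost sequence from the sister chromatid, after the MRN complex and its partners have trimmed the ends to single strands on which the BRCA proteins act. Checkpoint kinases halt the cell cycle meanwhile, and the Fanconi anaemia proteins clear crosslinks between strands. H3K36me3 is written by Setd2 on the bodies of transcribed genes as RNA polymerase II passes, and it is known to favour recombination at breaks through its reader Psip1. The peaks below show where the mark lay on the repair genes themselves, which is a different question from its role at breaks.

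The measurements were peak lists that the authors called for every H3K36me3 library, once with the matching Input as control and once with the matching IgG. Lists against Input are used unless IgG is named. Coverage is the percent of a gene's annotated span that lies under peaks, given for WT replicates 1 and 2 and KO replicates 1 and 2, and means are ± SD (n = 2). There were 242745 and 246258 WT peaks and 122589 and 159459 KO peaks, covering 243 and 235 Mb in WT and 71.7 and 94.4 Mb in KO. Read depth is unknown. Setd2 itself was covered by 63.4% ± 4.19 in WT and 1.20% ± 0.716 in KO, values that do not check the deletion because peaks do not show whether an exon is present. The cells are a bulk population, so loss of the mark in fewer cells and less of it in each cell cannot be told apart. Of 15 stromal markers, Col1a1, Col1a2, Col6a1, Vim, Pdgfrb and Cxcl12 were covered over 49.0% to 92.2% in the WT libraries, while Thy1, Twist1 and Lum were at 0% in both. Of 10 haematopoietic markers, Lyz2, Cd68 and Csf1r were the most covered in WT. Lyz2 had 74.9% and 87.6%, Cd68 had 37.03% and 71.3%, and Csf1r had 45.1% and 43.5%. Ptprc, Adgre1, Itgam and Lcp1 were lower, with 14.2% to 23.9% in the WT libraries. Laptm5 had 27.6% and 36.2% in WT, and Cd79b had 0% and 38.2%. In KO Lyz2 had 0% and 11.4%, and Csf1r 2.74% and 2.98%. The median WT coverage was 29.4% for the stromal list, 20.9% for the haematopoietic list and 3.11% for 6 endothelial markers. Against IgG these medians were 2.61%, 12.9% and 2.40%, so the order of the stromal and haematopoietic lists depended on the control. Cd3e was at 0% in both WT libraries. The part of such cells in the coverage of the repair genes was not tested.

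In WT the repair genes carried more of the mark than a typical protein-coding gene, and in KO little of their span was under peaks. The median coverage of the 33 genes was 41.8% and 40.5% in the WT libraries, beside 14.0% and 13.4% for all protein-coding genes, and 2.89% and 3.71% in the KO libraries, beside 1.00% and 1.96%. Both WT libraries covered at least 50% of the span in 12 of the 33 genes (36.4%), as in 22.3% of all protein-coding genes. Both KO libraries were below both WT libraries in 30 of the 33 genes, a pattern seen in 54.4% of all protein-coding genes and 65.0% of those with a peak in any library. In none of the 33 were both KO libraries above both WT libraries, as they were in 10.4% of all protein-coding genes. The exceptions to the separation were Bard1, Rad51b and Rad51c. Coverage under 10% in both KO libraries was found in 31 of the 33 genes (93.9%), as in 89.2% of all protein-coding genes, and the other two, Rad51d and Xrcc2, exceeded it only in KO replicate 2.

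**Figure D1:**
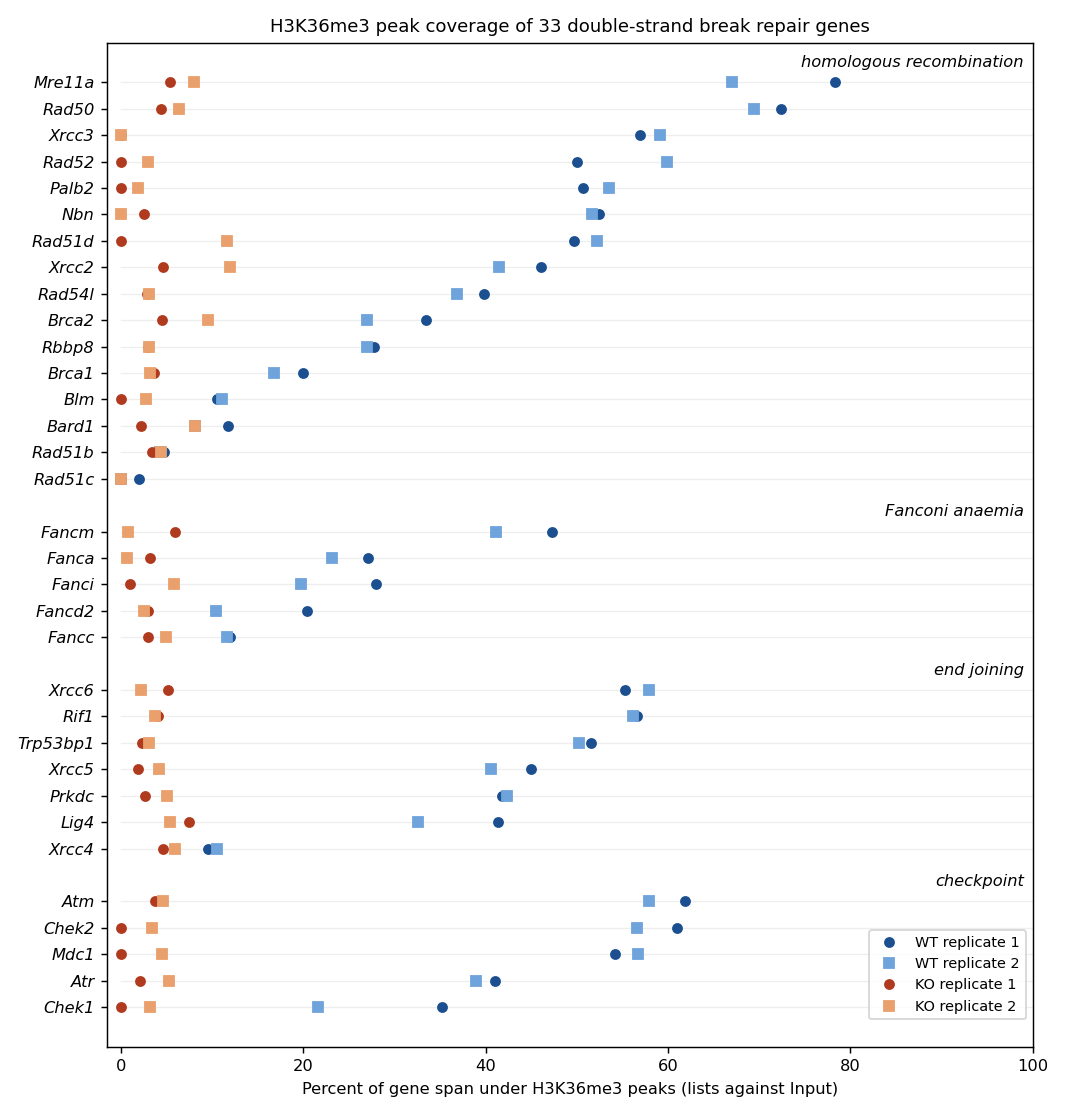
Percent of each gene's span under H3K36me3 peaks (x axis) in the 4 libraries, for the 33 genes grouped by role and ordered by WT mean within a role. Blue points are the WT libraries and red or orange points the KO libraries; KO points lie between 0% and 11.9% and WT points between 0% and 78.3%.

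KO was tested against WT with limma, fitted over every protein-coding gene whose coverage averaged 10% or more in the 4 libraries, with a threshold of 0.05 on the Benjamini-Hochberg adjusted p. Of the 33 genes, 26 passed this filter and all 26 fell and none rose, beside 92.6% that fell and 0.555% that rose of the 10809 genes tested. KO coverage is low nearly everywhere, so a gene passes the filter mainly through its WT coverage and the count says little about repair genes in particular. Without the filter 28 of the 33 fell, beside 58.5% of 18288 genes, and none rose, beside 2.69%. The 5 that did not were Bard1, Rad51b, Rad51c, Fancd2 and Xrcc4. The loss was not limited to these genes: over all 21887 protein-coding genes the median change was -10.6 percentage points, beside -36.3 for the 33. Over the 10809 tested genes, which passed the filter mainly through WT coverage, it was -47.7 points. Dividing every library by the mean coverage it had removes a loss of equal proportion, and the median change of the tested genes then was -16.7 points. On that scale 8 of the 26 genes were lower in KO, beside 45.2% of genes tested, namely Palb2, Nbn, Xrcc3, Rad52, Rad54l, Atm, Chek2 and Trp53bp1, and none was higher, beside 2.41%.

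The MRN complex, which binds broken ends first and starts their trimming, was densely marked in WT and kept few peaks in KO. Mre11a, its nuclease, lies on chromosome 9 from 14784654 to 14837125 (GRCm38, as all positions here). It had 78.3% and 67.0% in WT, against 5.34% and 8.01% in KO, the highest WT mean of the 33 genes, and fell by 66.0 points (SE 4.70, limma adjusted p 0.000582). Rad50, the coiled-coil ATPase that tethers the ends, had 72.4% and 69.4% in WT, against 4.35% and 6.32% in KO (limma adjusted p 0.000211). Nbn, the subunit that recruits Atm, had 52.5% and 51.7% in WT, against 2.50% and 0% in KO (limma adjusted p 0.000221). In all 3 subunits both KO libraries were far below both WT libraries, and the WT libraries were close together in Rad50 and Nbn but not in Mre11a. Mre11a and Rad50 exceeded 92.8% and 91.5% of protein-coding genes in WT coverage, and Nbn 76.5%. Rbbp8 (CtIP), the partner that activates the nuclease, was lower, with 27.7% and 27.0% in WT, against 2.97% and 3.08% in KO (limma adjusted p 0.000758).

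Members of the BRCA group, which act on trimmed ends, differed widely in WT. Brca1 and Bard1, the ubiquitin ligase pair that acts as 1 heterodimer, were sparsely marked. Brca1, on chromosome 11 from 101488761 to 101551955, had 19.9% and 16.7% in WT, against 3.62% and 3.19% in KO and fell by 14.9 points (SE 2.37, limma adjusted p 0.00544), but was higher in KO by 5.00 points after scaling (limma adjusted p 0.226). Bard1 had 11.7% and 8.10% in WT, against 2.15% and 8.14% in KO, so that KO replicate 2 lay between the WT libraries and no difference was detected (limma adjusted p 0.286 without the filter). The peaks of these 2 genes were also poorly repeated: of the bases covered in either WT library, 10.4% in Brca1 and 8.06% in Bard1 were covered in both. Palb2, the bridge between Brca1 and Brca2, had 50.6% and 53.5% in WT, against 0% and 1.87% in KO (limma adjusted p 0.000238), and 58.1% of its covered bases were shared by the WT libraries. Brca2, which acts on the trimmed strands, lay between, with 33.4% and 26.9% in WT, against 4.52% and 9.51% in KO. It fell by 23.2 points (limma adjusted p 0.00513), a call lost without WT replicate 1 (0.104) and without WT replicate 2 (0.0768), and after scaling it was higher in KO by 13.0 points (limma adjusted p 0.190).

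The genes Rad51b, Rad51c, Rad51d, Xrcc2 and Xrcc3, whose proteins form 2 small complexes that aid recombination, ranged from almost no peaks to dense coverage. Rad51c, a subunit of both complexes, spans 28.3 kb on chromosome 11 from 87376645 to 87404954. It held a single 563 bp peak in WT replicate 1, none in WT replicate 2 and none in either KO library, giving 1.99%, 0%, 0% and 0%. Its partner Xrcc3 had 56.9% and 59.1% in WT and 0% in both KO libraries (limma adjusted p 0.000211). Of its partners in the other complex, Rad51d had 49.6% and 52.2% in WT, against 0% and 11.7% in KO (limma adjusted p 0.00178), and Xrcc2 had 46.1% and 41.4% in WT, against 4.59% and 11.9% in KO (limma adjusted p 0.00170). Both calls were lost without WT replicate 1 (0.104 and 0.0911) and without WT replicate 2 (0.110 and 0.0787), and Xrcc2 was higher in KO by 10.3 points after scaling (limma adjusted p 0.450). Rad51b, the longest of the 33 genes at 551 kb, had 4.69% and 4.30% in WT, against 3.44% and 4.33% in KO. These values overlap, and Rad51b held 39 and 38 peaks in WT and 32 and 38 in KO, nearly equal numbers of short peaks. Subunits of 1 complex thus held very different WT coverage.

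Rad52, Rad54l and Blm completed the recombination genes. Rad52, which anneals single strands, had 50.0% and 59.9% in WT, against 0% and 2.90% in KO (limma adjusted p 0.000789). The motor protein gene Rad54l had 39.8% and 36.9% in WT, against 2.89% and 3.04% in KO (limma adjusted p 0.000379). Blm, the helicase that dissolves crossed strands, had only 10.5% and 11.1% in WT, against 0% and 2.74% in KO. It was below the filter, and without the filter it fell by 9.42 points (limma adjusted p 0.0191). In all, 12 of the 16 recombination genes passed the filter and all 12 fell, beside 92.6% of all genes tested. The count was lower without either WT replicate. Without the filter 13 of 16 fell, beside 58.5% of all genes with any coverage.

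The Fanconi anaemia genes had the lowest WT coverage of the 4 roles, with a median of 23.9% beside 41.0% for recombination, 42.7% for end joining and 55.5% for the checkpoint. The difference between roles was not tested. Fancm, the translocase that recognises stalled forks, stood above the rest with 47.3% and 41.1% in WT, against 5.88% and 0.778% in KO (limma adjusted p 0.000959; 0.0553 without WT replicate 1). Fanca, part of the core ubiquitin ligase complex, had 27.1% and 23.2% in WT, against 3.16% and 0.670% in KO (limma adjusted p 0.00204). Fanci and Fancd2 encode the clamp that this ligase modifies. Fanci had 28.0% and 19.7% in WT, against 0.970% and 5.84% in KO and fell by 20.5 points (limma adjusted p 0.0113), a call lost without WT replicate 1 (0.125), WT replicate 2 (0.0806) or KO replicate 1 (0.0804), and after scaling it was higher in KO by 0.479 points (limma adjusted p 0.963). Fancd2 had 20.4% and 10.5% in WT, with 6.61% of its covered bases shared, and 2.92% and 2.52% in KO. It missed the threshold without the filter (limma adjusted p 0.0741). Fancc, another core complex gene, had 12.0% and 11.6% in WT, against 2.95% and 4.93% in KO. It was below the filter, and fell without it (limma adjusted p 0.0308). Of the 5 Fanconi genes 3 passed the filter and all 3 fell, beside 92.6% of all genes tested, but fewer did without WT replicate 1.

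Among end joining genes WT coverage was lowest in Xrcc4 and ran from 32.6% to 57.9% in the libraries of the others. Xrcc6 and Xrcc5 encode Ku70 and Ku80, the ring that slides onto each end. Xrcc6 had 55.3% and 57.9% in WT, against 5.12% and 2.24% in KO (limma adjusted p 0.000241), and Xrcc5 had 44.9% and 40.5% in WT, against 1.87% and 4.21% in KO (limma adjusted p 0.000486). Prkdc, the large kinase that Ku recruits, had 41.8% and 42.3% in WT, from 103 and 109 peaks over 205 kb, and 2.62% and 5.07% in KO (limma adjusted p 0.000309). Trp53bp1 and Rif1, which shield ends from trimming and so favour joining, had 51.6% and 50.3%, and 56.6% and 56.2%, in WT. In KO they had 2.28% and 3.10%, and 4.10% and 3.71% (limma adjusted p 0.000217 and 0.000211). The partners of the final ligation step were unlike each other. Lig4, the ligase, had 41.3% and 32.6% in WT, against 7.47% and 5.39% in KO and fell by 30.5 points (limma adjusted p 0.00272), but was higher in KO by 8.48 points after scaling (limma adjusted p 0.387). Its scaffold Xrcc4, 241 kb long, had 9.55% and 10.6% in WT, against 4.64% and 5.92% in KO. It missed the threshold without the filter (limma adjusted p 0.0977), although the groups did not overlap. Of the 7 genes, 6 passed the filter and all 6 fell, beside 92.6% of all genes tested.

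All 5 checkpoint genes passed the filter and fell, beside 92.6% of all genes tested that fell. Atm, the kinase that answers to double-strand breaks, had 61.8% and 57.8% in WT, against 3.77% and 4.61% in KO (limma adjusted p 0.000232). Chek2, the kinase it activates, had 61.0% and 56.6% in WT, against 0% and 3.38% in KO (limma adjusted p 0.000275). Mdc1, the adaptor that spreads the signal along chromatin, had 54.2% and 56.7% in WT, against 0% and 4.45% in KO (limma adjusted p 0.000287). The arm that answers to single-stranded DNA was lower in WT. Atr, its kinase, had 41.0% and 38.9% in WT, against 2.06% and 5.28% in KO (limma adjusted p 0.000449). Its target Chek1 had 35.2% and 21.5% in WT, the widest gap between WT libraries in the list, and 0% and 3.18% in KO. Chek1 fell by 26.8 points (SE 5.59, limma adjusted p 0.0129), a call lost without WT replicate 1 (0.0651), KO replicate 1 (0.0944) or KO replicate 2 (0.0611).

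The longer repair genes tended to have lower coverage, with exceptions such as Atm, Trp53bp1, Atr and Prkdc. Over the 33 genes, WT coverage and span had a Spearman correlation of -0.372, and over all 21887 protein-coding genes one of 0.290, both descriptions across genes that share the same libraries. Within classes of length, the median WT coverage of the listed genes was 47.3% below 20 kb (6 genes), 52.1% from 20 to 60 kb (14 genes), 27.4% from 60 to 120 kb (9 genes) and 10.9% from 120 kb up (4 genes). Medians for all protein-coding genes were 5.74%, 32.6%, 25.5% and 7.18% in the same classes. The gap between the listed genes and the rest was thus widest in the shortest class and small from 60 kb up. Length was not matched in the shortest class, where the median span was 17.1 kb for the listed genes and 6.33 kb for all protein-coding genes. Rad51c, with a span in the second class and almost no peaks, and Prkdc, with 42.1% over 205 kb, were each far from the median of their class.

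**Figure D2:**
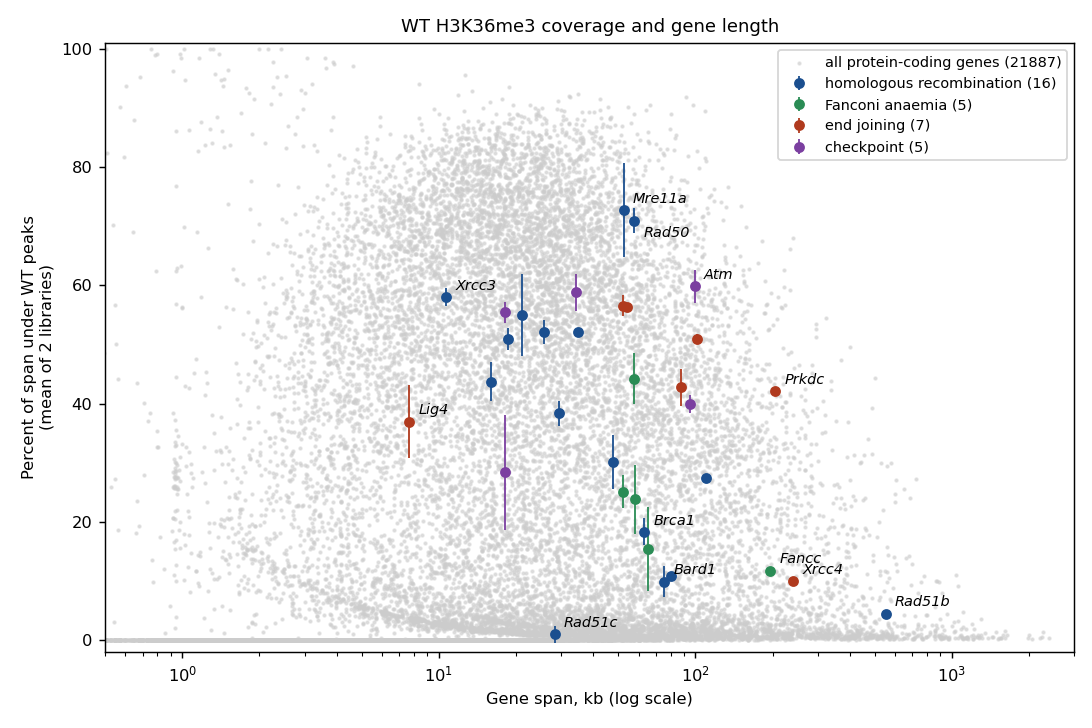
Mean WT coverage (y axis, percent of span, mean of 2 libraries) against gene span in kb (x axis, log scale), with grey points for all 21887 protein-coding genes and coloured points with SD bars for the 33 repair genes. Rad51b, Xrcc4 and Fancc sit at the lower right with 4.49% to 11.8%, and Mre11a and Rad50 stand highest among the coloured points.

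In WT mean coverage was low at the gene start and higher toward the end, in most but not all of the genes. A start site and strand were listed for 25 of the 33 genes, whose spans were cut into 20 equal bins. Mean WT coverage rose from 3.92% and 2.88% in bin 1 to 46.2% and 44.9% over the last 4 bins. The same bins gave 3.74% and 3.55%, and 42.7% and 41.4%, over 13412 protein-coding genes. Over the first 4 bins the 25 genes had 19.3% and 19.1%, beside 12.5% and 11.9% for protein-coding genes. Coverage was higher in the last 4 bins than in the first 4 in 20 and 19 of the 25 genes in WT (80% and 76%) and in 6 and 6 in KO (24% in each). Over the 13412 protein-coding genes the shares were 65.9% and 66.0% in WT, beside 28.4% and 31.6% in KO. In KO the mean was 1.13% and 2.89% over the first 4 bins and 1.93% and 2.67% over the last 4. Coverage differed most between the ends of Xrcc3, Rad54l and Trp53bp1, with both WT libraries of Xrcc3 and Trp53bp1 at 0% over the first 4 bins. In Rad54l coverage went from 9.97% and 8.27% over the first 4 bins to 95.5% and 97.9% over the last 4. Rad51b and Xrcc4 went the other way in both WT libraries, Xrcc4 from 6.78% and 16.1% to 4.69% and 4.90%. Brca2 and Xrcc5 did so in WT replicate 1 only, and Atr, Chek1 and Chek2 in WT replicate 2 only. Mre11a and Chek2 were covered almost from their starts, Mre11a with 71.2% and 50.7% and Chek2 with 57.7% and 72.4% over the first 4 bins. For Trp53bp1, Fancc and Xrcc6 the listed start site lies more than 10 kb inside the annotated span, so their early bins precede it. The bins also include bases shared with other genes, where the mark cannot be assigned to 1 gene. Xrcc3 shares 4.65 kb with Klc1 and Rad54l 2.85 kb with Lrrc41, and Fanca, Fancc and Fanci also share part of their spans. In these genes the shared part was more covered in WT than the rest. Its part in the rise toward the gene end was not tested.

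**Figure D3:**
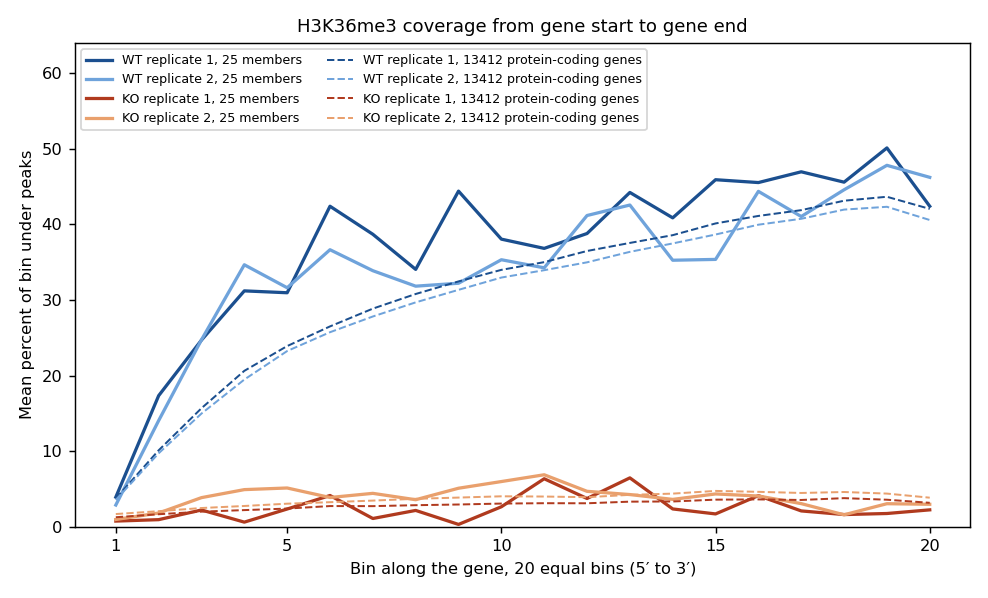
Mean percent of each bin under peaks (y axis) in 20 equal bins from start to end (x axis), for the 25 repair genes with a listed start site (solid lines) and 13412 protein-coding genes of at least 5 kb (dashed lines), 1 line per library. The WT lines of the repair genes climb from 3.92% and 2.88% in bin 1 to 42.4% and 46.2% in bin 20, where their KO lines are at 2.24% and 2.98%.

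**Figure D4:**
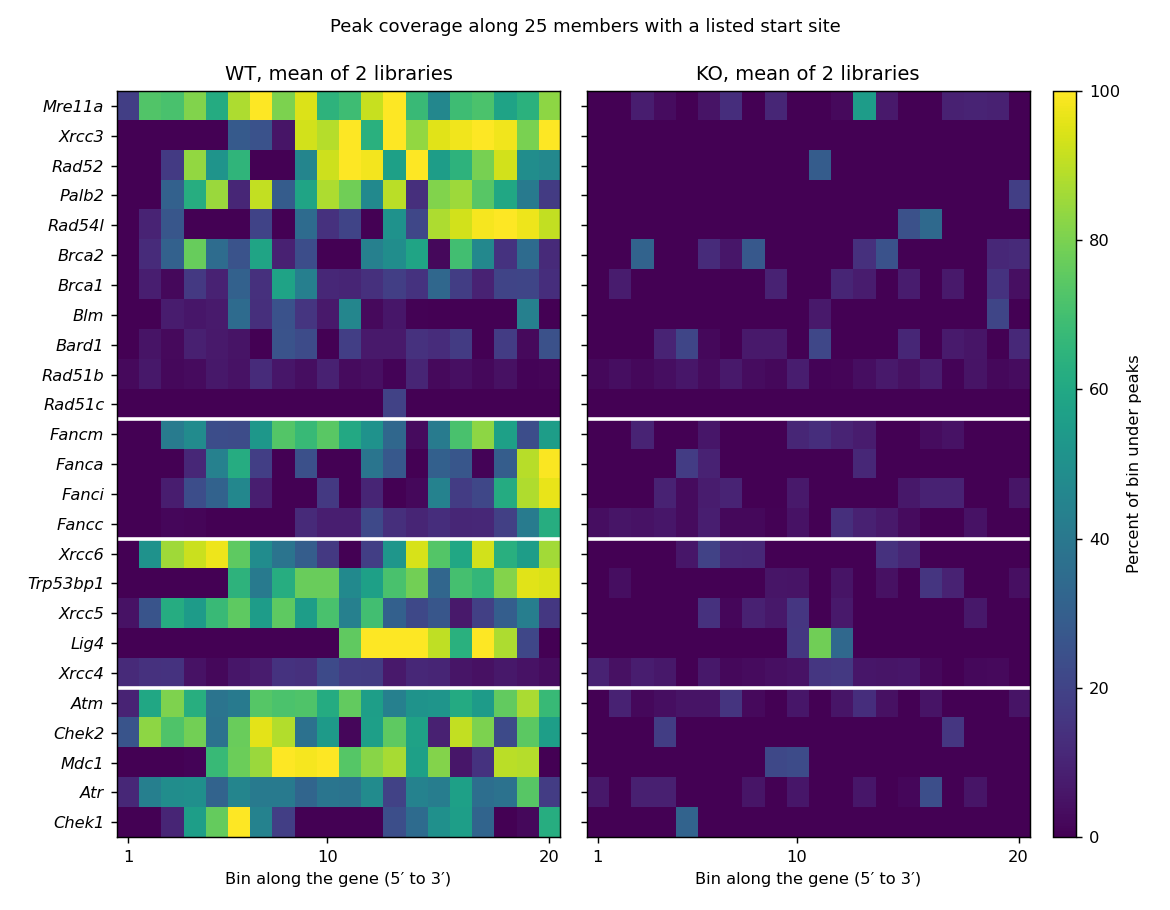
Percent of each bin under peaks (colour) for the 25 genes with a listed start site (rows, white lines between the roles) in 20 bins from start to end (x axis), as the mean of 2 WT libraries (left) and 2 KO libraries (right). In WT, Mre11a has peaks in every bin, Rad54l and Xrcc3 fill at the end, and Rad51c is almost empty. Bins include bases shared with other genes, as in Rad54l and Xrcc3.

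Few peaks lay at the start sites themselves. The nearest peak downstream of the start was a median of 3.94 and 4.21 kb away in WT and 22.9 and 9.88 kb away in KO. These distances are not limited to the gene, so the peak can lie past its end. For Rad51c, 28.3 kb long, it was 87.0 kb away in WT replicate 2 and 165 kb in KO replicate 1. Of the 29 windows of 250 bases just upstream of listed starts (some genes have 2), only that of Fanci touched a peak, in every library. Over 21263 such windows of protein-coding genes, 3.20% and 3.07% touched a WT peak and 1.73% and 2.10% a KO peak. The Fanci peak ended 187 to 198 bases before the start and measured 315 and 309 bp in WT and 331 and 320 bp in KO. Its score, the authors' own value per peak, was 280 and 219 in WT, beside 299 and 336 in KO. None of the 4 lists against IgG held a peak in this window. It was thus called in both genotypes and with 1 kind of control only. The window is printed below from RefSeq (GRCm38.p6, chr7:79392088-79392337, plus strand), with the bases under the peak in all 4 lists in capitals.

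Fanci: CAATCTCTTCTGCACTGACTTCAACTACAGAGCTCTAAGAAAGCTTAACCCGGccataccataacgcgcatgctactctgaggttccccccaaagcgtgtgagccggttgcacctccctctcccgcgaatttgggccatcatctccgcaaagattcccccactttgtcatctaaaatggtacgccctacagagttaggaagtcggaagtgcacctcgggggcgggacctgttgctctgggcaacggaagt

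Promoter sequence was also set beside coverage. The windows were searched on both strands for 4 forms of the site of E2F, a factor known to drive genes of the cell cycle and of replication: TTTGGCGC, TTTCCCGC, TTTGCCGC and TTTCGCGC, each window being counted once however many matches it held. Of the 25 genes with a window, 5 held a form (20%), in each case TTTCCCGC, and 2.35% of the 21263 windows, which are counted per start and not per gene, held any of the 4. The 5 genes were Bard1, Chek2, Brca2, Xrcc6 and Mdc1. Their WT means ran from 9.92% to 58.8%, so a match went with low as well as with high coverage of the gene. The windows of Chek2 (chr5:110839733-110839982, plus strand) and Bard1 (chr1:71102973-71103222, minus strand) show the ends of that range, with the match in capitals; in Chek2 it is on the reverse strand and reads GCGGGAAA. Those of Mre11a (chr9:14784404-14784653, plus strand) and Rad51c (chr11:87404955-87405204, minus strand, the outer of its 2 listed starts) belong to the most and the least covered of the 33 genes, hold none of the forms and have no capitals. All are from RefSeq (GRCm38.p6), 5′ to 3′ toward the start site.
Chek2: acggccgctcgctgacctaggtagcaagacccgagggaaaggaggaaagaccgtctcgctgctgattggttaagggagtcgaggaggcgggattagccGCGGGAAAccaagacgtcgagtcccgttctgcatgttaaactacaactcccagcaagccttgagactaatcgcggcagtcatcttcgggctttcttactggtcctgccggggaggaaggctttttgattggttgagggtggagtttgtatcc
Bard1: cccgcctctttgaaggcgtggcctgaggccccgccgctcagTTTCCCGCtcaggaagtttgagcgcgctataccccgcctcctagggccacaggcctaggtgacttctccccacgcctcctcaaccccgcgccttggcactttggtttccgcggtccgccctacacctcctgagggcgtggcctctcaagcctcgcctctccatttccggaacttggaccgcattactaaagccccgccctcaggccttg
Mre11a: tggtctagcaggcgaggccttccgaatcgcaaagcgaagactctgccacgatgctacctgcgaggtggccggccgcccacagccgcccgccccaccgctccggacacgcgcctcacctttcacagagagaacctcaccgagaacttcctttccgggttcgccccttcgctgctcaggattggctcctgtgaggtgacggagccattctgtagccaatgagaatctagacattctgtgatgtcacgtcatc
Rad51c: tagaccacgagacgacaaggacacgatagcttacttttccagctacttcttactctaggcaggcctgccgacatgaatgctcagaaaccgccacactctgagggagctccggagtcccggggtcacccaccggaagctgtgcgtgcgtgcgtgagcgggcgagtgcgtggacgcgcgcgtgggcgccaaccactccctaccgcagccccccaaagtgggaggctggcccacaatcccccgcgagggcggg

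Neighbouring genes share part of the span of several repair genes, and there the mark cannot be assigned to 1 gene. Another annotated gene overlaps 13 of the 33. Fanca shares 4.26 kb with Zfp276, where WT coverage was 99.2% and 97.3%, beside 20.7% and 16.6% in the bases of Fanca alone. Xrcc3 shares 4.65 kb with Klc1, with 87.2% and 96.6% there and 33.5% and 30.2% elsewhere. Rad54l shares 2.85 kb with Lrrc41, with 90.7% and 97.2% there and 34.4% and 30.4% elsewhere. In Fancc 24.8 kb overlap Aopep, with 51.6% and 39.9% there and 6.27% and 7.47% elsewhere. Fanci behaved likewise where it meets Polg and 2 predicted genes, with 58.6% and 61.1% beside 24.2% and 14.6%. In these 5 genes both WT libraries were more covered in the shared part than in the rest. In Trp53bp1 the shared part was the less covered, with 33.2% and 36.2% in 10.7 shared kb and 53.7% and 51.9% elsewhere. Xrcc6 shares 23.7 kb with Desi1, with 50.6% and 58.9% there and 59.2% and 57.0% elsewhere. With shared bases left out, 26 of the 33 genes still passed the filter and all 26 fell.

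**Figure D5:**
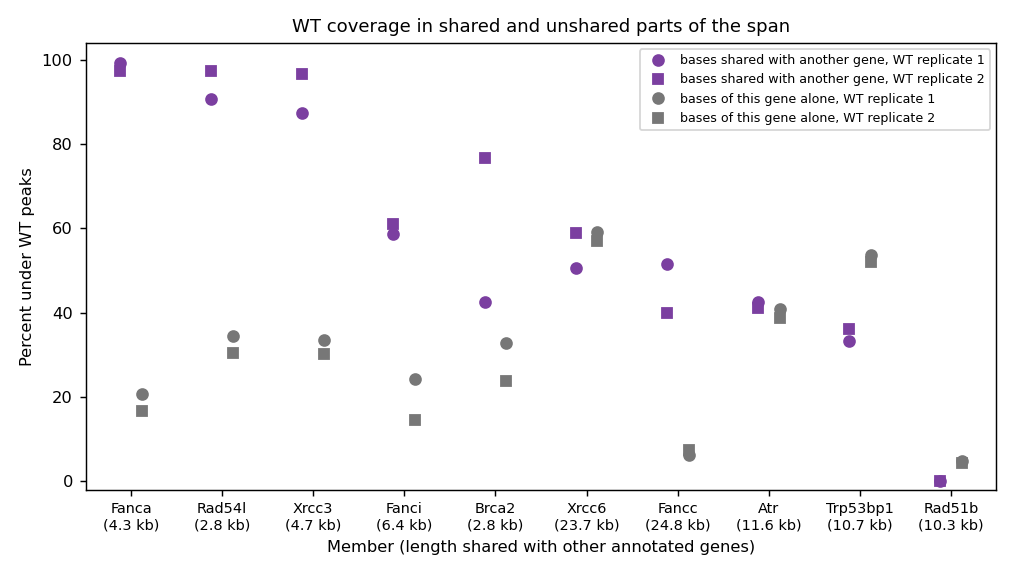
WT coverage (y axis, percent of bases under peaks) in the bases a repair gene shares with another annotated gene (purple) and in the bases of the gene alone (grey), for the 10 genes sharing at least 2 kb; circles are WT replicate 1 and squares WT replicate 2. In Fanca, Rad54l and Xrcc3 the shared part is covered by 87.2% to 99.2% and the rest by 16.6% to 34.4%.

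Peaks in the repair genes were fewer and narrower in KO, as they were in the whole lists. The 33 genes together held 830 and 797 peaks in WT, with mean widths of 935 and 910 bp, and 143 and 200 peaks in KO, with mean widths of 569 and 597 bp. In the whole lists the mean widths were 999.5 and 956 bp in WT and 585 and 592 bp in KO. Peaks wider than 2 kb numbered 39 and 38 in WT (4.70% and 4.77% of the peaks in these genes) and 0 in KO. In the whole lists they made up 8.61% and 7.57% in WT and 0.0742% and 0.0690% in KO, so that 0 is close to what the KO lists hold in general. The widest WT peak was 5730 bp in replicate 1 and 7470 bp in replicate 2, and the widest KO peaks were 1011 and 1177 bp. Both WT libraries covered the same 450 kb of the 1019 kb covered in either (44.2%), and both KO libraries the same 10.1 kb of 189.8 kb (5.31%). Over all protein-coding spans these shares were 49.1% and 5.11%. Flanks of 10 kb on either side, outside annotated genes, were covered by 11.3% and 13.0% in WT, against 3.02% and 4.55% in KO. The KO coverage of the flanks was thus close to the 3.04% and 4.46% of all bases of the 33 genes pooled.

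The KO peaks that did occur tended to lie where WT had peaks, in the 33 genes as over all protein-coding spans. In the 33 genes 61.4% and 59.8% of KO bases fell on bases covered in either WT library, which made up 38.2% of the spans. Over all protein-coding spans the values were 41.0% and 39.6%, and 26.5%. Pieces covered in both KO libraries numbered 27, in 12 genes, and were 17 to 616 bp long. Both WT libraries had a peak on at least part of 20 of them, and 6 had none in WT. No such count over all genes is given here. Mre11a held 3 such pieces (chr9:14816168-14818824 from the first to the last base), each wholly under peaks of both WT libraries. The single piece in Rad54l (chr4:116101255-116101870) was the longest and was also wholly covered in WT. Rad51b held 8 pieces, of which 4 had no WT peak, and Xrcc4 held 5, of which 1 had none. Against IgG, 14 of the 27 pieces were touched by peaks in both KO libraries.

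The lists against IgG gave lower coverage in most of the genes. Brca1 and Fanci were below the filter with this control. Rad51b, which overlapped between genotypes with the Input lists, had 3.93% in each WT library, against 2.44% and 3.16% in KO, and so did not overlap here. Mean WT coverage was lower against IgG in 31 of the 33 genes, with a median of 37.6%, and the KO median was 2.14%. Of the 33 genes 24 passed the filter against IgG and all 24 fell, beside 91.4% of 9635 genes tested. None rose, beside 0.218%. The order of the genes in WT was nearly the same with both controls (Spearman correlation 0.966 over the 33 genes, which share the H3K36me3 libraries). Rif1 and Xrcc6 lost the most, from 56.4% to 39.2% and from 56.6% to 39.9%. Xrcc3 had the same coverage with both controls, 56.9% and 59.1%.

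Most of the other genes of these pathways, 89 in all, were called lower in KO. Of them 74 passed the filter and 73 fell, beside 92.6% of all genes tested, a share near which their count lies. Without the filter 77 of the 88 with any coverage fell, beside 58.5%. Dmc1, a recombination gene of meiosis, had 3.20% and 0% in WT, against 3.97% and 3.56% in KO, and Rmi2, a partner of Blm, was at 0% in all 4 libraries; both were picked out after their values were seen. Slx4, the scaffold of nucleases that cut crossed strands, fell from 88.6% ± 3.60 to 9.46% ± 1.46 (limma adjusted p 0.000211), and Lig3, a ligase of alternative end joining, from 82.4% ± 2.71 to 5.54% ± 0.678 (limma adjusted p 0.000211). Rad51ap1, a recombination cofactor, was among the smallest falls, from 17.5% ± 4.92 to 3.65% ± 0.244 (limma adjusted p 0.0191). Paxx, a Ku partner of 7.54 kb, had 8.65% and 28.8% in WT, against 0% and 16.9% in KO, and missed the threshold (limma adjusted p 0.373). Of the 74 tested, 30 of 30 recombination, 9 of 9 Fanconi, 16 of 17 end joining and 18 of 18 checkpoint genes fell. The share over all genes tested was 92.6%. Listed genes of these roles numbered 35, 14, 19 and 21, and those below the filter were not tested. Median WT coverage of the 89 genes was 46.6%.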

How the data were processed

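H3K36me3 chromatin of 2 WT and 2 KO libraries was sequenced, with 1 Input and 1 IgG library for each genotype. The submitters' processing notes name Bowtie2 and the build GRCm38. The authors deposited 8 peak lists, each of 1 library against 1 control, with a score per peak, per the labels; peak names start with MACS, while version and settings are not stated in the labels. The smallest deposited score is 13.01 and its scale is not stated. The lists hold no counts, so depth is unknown, more reads could yield more peaks, and no limit can be set for genes that hold none. Both libraries of a genotype share their control libraries.

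Gene spans and promoter windows came from RefSeq tables of GRCm38.p6 (chromosomes 1 to 19, X and Y); 3 of the 89 other pathway genes were matched by an older symbol, and start sites of Rad50, Nbn, Rad51d, Xrcc2, Rbbp8, Fancd2, Prkdc and Rif1 were not used here. Coverage per gene was computed in Python 3.11.15 with scipy 1.17.1, pandas 2.3.3 and numpy 2.4.6, drawn with matplotlib 3.10.9 and tested with limma 3.58.1 in R 4.3.3 (trend and robust options, statmod 1.5.0), which was tested on simulated data. The 33 genes and the lists were chosen with earlier results of these data known. All 33 genes are named; of the other pathway genes, those tested with the 2 largest and 2 smallest falls and any that did not pass; further genes (markers, neighbours) were chosen after their values were seen. Alternatives were IgG lists, higher scores, other filters, scaling, merged peaks, a replicate block, unshared bases and leaving out each library.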

Additional observations from a re-analysis of the deposited data

How the results depend on the processing

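The number of the 33 genes that fell (26) stayed between 22 and 28 against IgG, with higher scores, without a filter, with merged peaks and in unshared bases, and became 14 with a filter of 25%, which leaves fewer genes to test, and 8 after scaling. Without single libraries it ran from 20 to 25, for recombination genes from 9 to 12, for Fanconi genes from 1 to 3, for end joining genes it was 6, for checkpoint genes 4 to 5 and for the other pathway genes 64 to 70. After scaling, 5 of 12 recombination, 0 of 3 Fanconi, 1 of 6 end joining and 2 of 5 checkpoint genes were lower in KO. So were 35 of 74 other pathway genes and 45.2% of all genes tested. With the filter of 25%, 8 of 8 recombination, 3 of 3 end joining, 3 of 3 checkpoint and 43 of 43 other genes fell. No Fanconi gene passed that filter, so none was tested. Genes pass it mainly through WT coverage. The cause of the change with scaling was not tested. Brca1 (5.00), Brca2 (13.0), Xrcc2 (10.3), Fanci (0.479) and Lig4 (8.48 points) turned higher in KO after scaling, and 13 further genes lost their call. The median WT coverage of 42.1% became 37.6% against IgG, 29.5% with peaks at or above the median score, 23.7% after scaling, 52.3% with peaks within 1 kb merged, 39.7% in unshared bases and 40.5% to 41.8% without 1 WT library. The KO median of 3.40% became 2.14% against IgG, 2.02% with higher scores and 15.3% after scaling, and was 2.89% to 3.71% without 1 KO library. With the replicate number as a block 26 of the 33 genes and 72 of the other 74 fell. The deviations of same-numbered libraries correlated at -0.00333 over 10809 genes. Whether the numbers pair the libraries is not in the labels, and with 2 libraries per genotype this correlation cannot decide it. Depth is unknown, which limits every statement on absent peaks.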
